A study of Rattus norvegicus with 5 samples.

Results

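The genes described here encode enzymes of cholesterol synthesis, measured in lung RNA of rats after instillation of urban dust into the trachea. The list held 7 symbols: Acat2, Hmgcs1, Idi1, Fdps, Fdft1, Sqle and Msmo1. Every probe set that the platform annotation gave to 1 of these symbols alone was taken, which gave 14 probe sets for 6 of the 7 genes, among 4736 named genes in all. The annotation used here named no probe set for Hmgcs1, and it was not analysed here. The genes were selected on their intensities on these same 5 arrays. Which contrast chose them is not recorded, so every contrast of these arrays counts as used, and their levels are given as a description, with no test.

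A single one-colour array carried the pooled RNA of each of the 5 groups. The early dust pool came from rats 2, 4 and 6 h after instillation of EHC-93, particulate matter collected from city air, the intermediate pool from 15, 18 and 21 h, and the late pool from 24, 32 and 40 h. The sham pool came from 2, 15 and 24 h after saline instillation, so no exposed phase had a saline pool of the same times, and the untreated pool came from 3 rats that were not instilled. The labels state neither strain, sex, age and dust dose nor how many rats stand behind an instilled pool. With 1 array per group no difference between single arrays has an error.

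Cells make cholesterol from acetyl coenzyme A. Acat2 and Hmgcs1 act at the start, the mevalonate kinases and decarboxylase follow, Idi1 and Fdps build the isoprenoid chain, Fdft1 joins farnesyl units to squalene and thereby commits them to sterols, and Sqle, Lss, Cyp51 and Msmo1 turn squalene into the sterol ring system and trim it. When sterol in the endoplasmic reticulum is low, the transcription factor SREBP2 is released to the nucleus and raises most of these genes together. In the lung, alveolar type 2 cells use cholesterol for surfactant, and macrophages take it up and pass it on.

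The RefSeq promoter table held 4 of the 6 genes, Idi1, Fdps, Msmo1 and Acat2. Their 250 bases before the annotated start are shown because these genes are known as joint targets of sterol control. They are written 5′ to 3′ on the strand of the gene, from the build GRCr8. Capitals mark matches on either strand to CCAAT, the box bound by NF-Y, which assists SREBP at sterol genes, or to GGGCGG, the GC box bound by Sp1.
Idi1, chr17:66547525-66547774, minus strand: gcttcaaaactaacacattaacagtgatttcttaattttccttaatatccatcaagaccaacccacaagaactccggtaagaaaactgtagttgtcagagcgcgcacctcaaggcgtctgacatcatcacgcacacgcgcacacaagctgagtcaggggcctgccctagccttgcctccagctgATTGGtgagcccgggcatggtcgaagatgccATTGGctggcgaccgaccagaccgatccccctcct
Fdps, chr2:176804817-176805066, minus strand: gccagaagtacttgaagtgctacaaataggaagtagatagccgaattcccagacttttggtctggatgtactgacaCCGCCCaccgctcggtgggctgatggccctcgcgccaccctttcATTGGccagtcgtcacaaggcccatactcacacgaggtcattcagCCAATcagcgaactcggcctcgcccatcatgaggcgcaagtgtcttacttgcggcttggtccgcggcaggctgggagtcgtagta
Msmo1, chr16:29746863-29747112, plus strand: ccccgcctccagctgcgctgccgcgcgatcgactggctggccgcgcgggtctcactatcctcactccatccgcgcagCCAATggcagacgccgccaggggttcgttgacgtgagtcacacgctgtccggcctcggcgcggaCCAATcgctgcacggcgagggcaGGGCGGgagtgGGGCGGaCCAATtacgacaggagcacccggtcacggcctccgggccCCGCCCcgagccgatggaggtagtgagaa
Acat2, chr1:50100590-50100839, plus strand: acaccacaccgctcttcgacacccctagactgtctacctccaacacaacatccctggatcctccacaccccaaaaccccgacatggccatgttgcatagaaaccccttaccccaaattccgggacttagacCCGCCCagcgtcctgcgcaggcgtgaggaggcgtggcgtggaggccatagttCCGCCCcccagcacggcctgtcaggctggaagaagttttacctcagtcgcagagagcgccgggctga

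In Idi1 the 2 CCAAT matches began 66 and 35 bases before the start. Fdps had CCAAT matches beginning 130 and 85 bases before the start and a GC box at 174. Msmo1 had 3 CCAAT matches, at 173, 109 and 68, and 3 GC boxes. Acat2 had GC boxes at 119 and 67 and no CCAAT match. Among all 33469 promoter windows of the same length, 34% held a CCAAT match and 30.5% a GC box. None of the 4 windows held TCACNCCAC, the only form of the sterol regulatory element searched for, which 0.974% of all windows held. Other forms were not searched for, so these windows are not shown to lack the element. No matches of the 3 motifs overlapped. A match is no evidence of binding, and none of these letters were tested by the arrays.

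The values below are deposited intensities scaled so that all arrays have the same median, and values under 172.5, the 40th percentile, were set to that floor. A gene's main probe set is its brightest one by mean log2 value, all 5 arrays counted. A call of higher or lower on an exposed array needed a 2-fold or larger distance from the sham and from the untreated array alike. Of the 14 probe sets, 13 exceeded the floor somewhere and 11 on all 5 arrays. The surfactant protein genes Sftpc, Sftpb and Sftpa1 read between 32178 and 71970 on every array.

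By their main probe sets, 5 of the 6 enzymes had all 3 exposed arrays above both unexposed arrays, a pattern found for 14.2% of the 3667 genes above the floor on at least 1 array, while none had them all below, as 6.03% of genes did. The 6 main probe sets were above the floor on all 5 arrays, which was not asked of the 3667 genes behind this and later shares. The differences of the enzymes were mostly under 2-fold. On the early array 1 of the 6 enzymes, Idi1, was called higher and none lower, against 2.54% and 0.3% of all genes. None was called on the intermediate array (0.873% higher and 0.218% lower in all genes), and 1, Fdft1, was called higher on the late array (0.6% and 1.04%). With 1.5-fold in place of 2-fold, 4, 2 and 4 of the 6 were higher in early, intermediate and late dust pools, against 6.84%, 4.75% and 3.05% of all genes. The median difference of the 6 from the mean of both unexposed arrays was 0.68, 0.57 and 0.87 on the log2 scale in early, intermediate and late dust pools, where the median of all genes was -0.01, 0.09 and 0.07. In bulk lung RNA, more RNA per cell and more cells that hold it cannot be told apart. Since the enzymes were chosen with these values known, nothing is read from their counts.

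**Figure D1:**
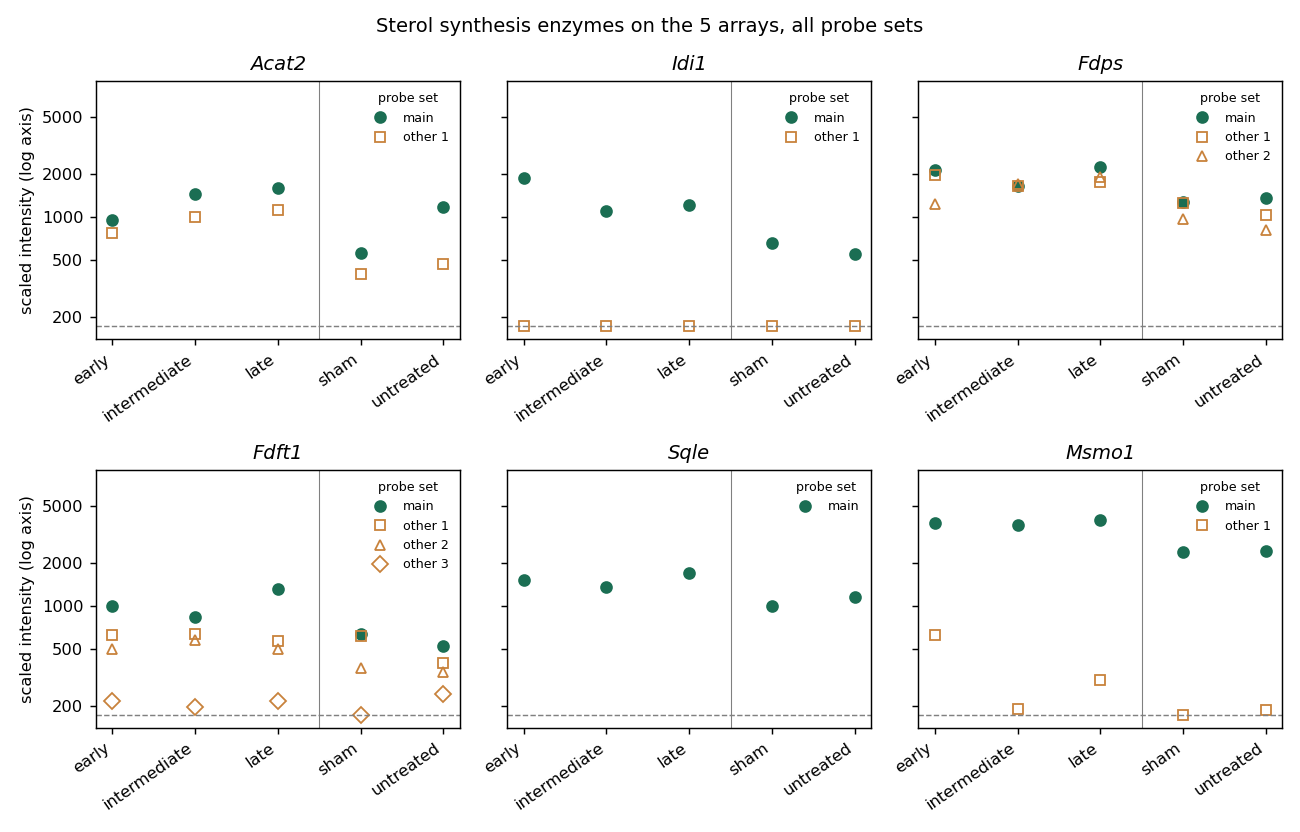
Scaled intensity (log axis) of every probe set of the 6 enzymes on the 3 exposed arrays (left of the vertical line) and the sham and untreated arrays (right of it). Filled points are main probe sets, open points are other probe sets, and values under the floor of 172.5 (dashed line) are drawn on it; Msmo1 sits at 3682 to 3989.7 on the exposed arrays and near 2402 and 2419.7 on the sham and untreated arrays.

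At the start of the pathway, Acat2 makes acetoacetyl coenzyme A in the cytosol. Its main probe set read 954, 1455 and 1611.5 in early, intermediate and late dust pools, against 563 in the sham pool and 1174 in the untreated pool. The early array thus lay between the unexposed arrays, and the others lay above both. Against sham it was 1.70-fold, 2.59-fold and 2.86-fold higher, but against untreated the ratios were 0.812, 1.24 and 1.37. The second probe set gave the exposed arrays more distance, at 782, 1009 and 1115, against 401 in the sham pool and 469 in the untreated pool. On it all exposed arrays were above both unexposed arrays, and the intermediate (2.52-fold and 2.15-fold) and late (2.78-fold and 2.38-fold) arrays passed 2-fold against sham and untreated. The promoter table also lists a gene named Acat2l1. Whether the probe sets tell the 2 genes apart was not tested, so the identity of the signal is uncertain.

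Idi1, the isomerase that interconverts the 5-carbon building blocks of isoprenoids, had the largest difference from the mean of both unexposed arrays among the 6 main probe sets, 1.64 on the log2 scale in the early dust pool; the second Msmo1 probe set went further, at 1.80 or more. Idi1 read 1877, 1102 and 1214 in early, intermediate and late dust pools, against 658 in the sham pool and 549.9 in the untreated pool. The early array stood out, and the later arrays lay between it and the unexposed ones. The early array was 2.85-fold above sham and 3.41-fold above untreated, the intermediate array 1.67-fold and 2.00-fold, and the late array 1.85-fold and 2.21-fold. The second Idi1 probe set was under the floor on all 5 arrays and gives no size. With the log2 values of both probe sets averaged, which pulls the gene toward the floor, the early difference from the mean of both unexposed arrays was 0.82 for Idi1 and 1.23 for Msmo1 on the log2 scale, and Idi1 was no longer called.

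Fdps, the synthase of farnesyl diphosphate, read 2157, 1661 and 2233 in early, intermediate and late dust pools, against 1288 in the sham pool and 1363 in the untreated pool. The exposed arrays did not overlap with the unexposed ones, with the intermediate array closest to them at 1.29-fold above sham and 1.22-fold above untreated. Its other probe sets showed the same separation with different shapes. One read 1965, 1652 and 1774 on the exposed arrays, against 1252 in the sham pool and 1038 in the untreated pool. The other was lowest of the exposed arrays at the early times, with 1239, 1714 and 1900.0, against 975 in the sham pool and 819 in the untreated pool. Thus the phase with the highest Fdps signal depended on the probe set.

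Fdft1, squalene synthase, had 4 probe sets, and they disagreed. The main one read 996, 840.3 and 1314 in early, intermediate and late dust pools, against 634 in the sham pool and 528 in the untreated pool. The late array was 2.07-fold above sham and 2.49-fold above untreated. This call lay close to the threshold, and it was lost with values as deposited, with scaling to the 75th percentile, after quantile normalization and with the mean of all probe sets, where the late difference from the mean of both unexposed arrays was 1.07, 1.12, 1.13 and 0.49 on the log2 scale. A probe set made from an expressed sequence tag read 499.8, 577 and 496, against 366 and 347 on the sham and untreated arrays, and kept the groups apart at 1.35-fold to 1.66-fold. In contrast, the companion of the main probe set read 625, 639 and 571, against 614 and 399, so that the late array lay under sham. The last one read 217, 197 and 215, against an unmeasured level below the floor in the sham pool and 241 in the untreated pool, with no separation.

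Sqle, squalene epoxidase, the first enzyme of the pathway that uses oxygen and a rate-limiting step beside the reductase, was read by 1 probe set. Its values were 1515, 1353 and 1694 in early, intermediate and late dust pools, against 997 in the sham pool and 1162 in the untreated pool. The exposed arrays were all above both unexposed ones, by 1.16-fold at least (intermediate over untreated) and 1.70-fold at most (late over sham). Msmo1, which removes methyl groups from the early sterols, was the most even of the 6. Its main probe set read 3791, 3682 and 3989.7 on the exposed arrays, against 2402 in the sham pool and 2419.7 in the untreated pool, 1.52-fold to 1.66-fold in every pairing. Its second probe set was dimmer and uneven, at 628, 191 and 301, against a sham pool below the floor and 187 in the untreated pool. There the early array was above sham by at least 3.64-fold and above untreated by 3.35-fold, while the intermediate array was 1.02-fold above untreated.

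**Figure D2:**
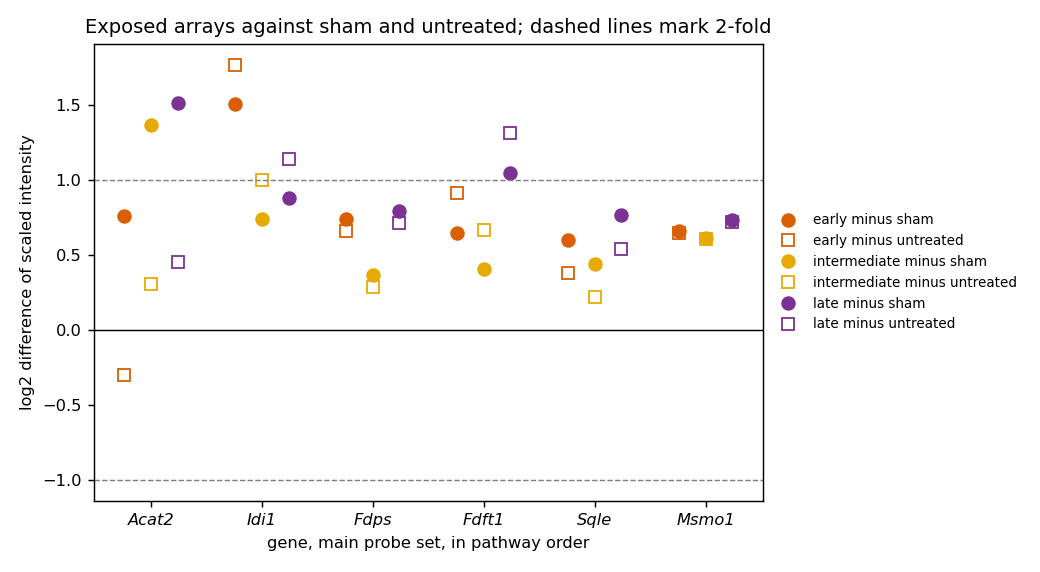
Log2 difference of each exposed array from the sham array (filled circles) and the untreated array (open squares) for the main probe set of each enzyme; dashed lines mark 2-fold. All differences are above 0 except the early Acat2 value against untreated, -0.30, and both early Idi1 values and both late Fdft1 values are past 1.

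Over all probe sets, 10 of the 13 above the floor on at least 1 array had every exposed array above both unexposed arrays, against 13.9% of 5068 named probe sets. Of the 7 second probe sets, 5 did. The exceptions were the main Acat2 probe set and 2 of the 4 Fdft1 probe sets. By the 2-fold rule, 2, 1 and 2 of the 13 probe sets were higher in early, intermediate and late dust pools, and none was lower; in all named probe sets 3.26%, 0.848% and 0.572% were higher. Probe sets of 1 gene read the same RNA and are no replicates of the condition.

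Comparing the phases with each other uses no unexposed array. No enzyme was 2-fold above or below both other exposed arrays on any phase, as for most genes: 1.77% of genes were higher and 0.709% lower on the early array, 0.436% and 0.136% on the intermediate array, and 0.109% and 1.23% on the late array. By main probe sets the late array was the highest exposed array for 5 of the 6, Idi1 being the exception, as it was for 29.7% of all genes. The intermediate array was the lowest for 5, Acat2 being the exception, and for 21.5% of all genes. The second probe sets went otherwise: of the 7 above the floor on at least 1 array, the late array was highest in 2 and the intermediate array lowest in 3. RNA quality also differed, as read from the signal of 5′ over 3′ control probe sets, which drops with broken RNA or short copies. For beta-actin it was 43.1%, 9.07% and 19.6% in early, intermediate and late dust pools, against 14.7% in the sham pool and 24.4% in the untreated pool. For GAPDH it was 67.2%, 23.6% and 38.1%, against 25.4% and 39.1%. The intermediate array, lowest of the exposed arrays for 5 of the 6 main probe sets but 3 of the 7 second ones, had the lowest ratio. In both ratios the late array lay under the untreated array, narrowly for GAPDH, and above the sham array. In the main probe sets of all 6 enzymes it lay above both. Their part in the result was not tested.

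Between the sham and the untreated array the enzymes did not differ in 1 direction. With 1 array each, instillation and array-to-array difference cannot be told apart. By main probe sets, the sham array was lower than the untreated array for Acat2, Sqle, Fdps and Msmo1 and higher for Idi1 and Fdft1, with a median log2 difference of -0.05 against -0.04 for all genes. Acat2 alone passed 2-fold, at 0.479 of the untreated level, where 1.61% of all genes were called lower and 1.55% higher. That call was lost on the second Acat2 probe set, at 0.855 of the untreated level. The other Fdps probe sets were higher in sham, at 1.21-fold and 1.19-fold.

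A listed gene was counted as measured where its main probe set was above the floor on at least 1 array. The other enzymes of the sterol pathway were looked at through a list of 13, of which 8 were measured. None passed 2-fold in either direction on any exposed array. Their median log2 difference from the unexposed arrays was 0.04, 0.32 and 0.41 in early, intermediate and late dust pools. Cyp51, the lanosterol demethylase, which acts upstream of Msmo1, read 942, 1040.1 and 1093 in early, intermediate and late dust pools, against 752 in the sham pool and 496 in the untreated pool. Lss, which closes squalene epoxide into the first sterol, read 521, 386 and 519, against 374 and 266. These 2 had every exposed array above both unexposed ones, and the other 6 did not. The mevalonate decarboxylase Mvd read 673, 911 and 914, against 778 and 658, so that its early array lay between the unexposed ones. Mevalonate kinase, Mvk, read 249, 229 and 412, against 292 in the sham pool and an untreated pool at the floor. Dhcr7, the last reductase of the pathway, read 426, 719 and 673, against 539 and 509, below both unexposed arrays early and above both later. Nsdhl, a decarboxylating dehydrogenase, was lowest on the late array, at 295, 477 and 224, against 328 and 369.8. Ebp, a sterol isomerase, read 488, 437 and 579, against 438 and 409, and Hsd17b7 was under the floor on every array but sham.

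Exposure averaged over the phases could be tested for genes outside the chosen 6, with limma on 3 exposed against 2 unexposed arrays; phase and instillation differences are part of its residual. Over all 3667 genes none had an adjusted p under 0.05, while 4.8% (176) were higher and 2.18% (80) lower at an unadjusted p under 0.05. Of 35 measured genes in 6 lists of sterol, isoprenoid and fatty acid metabolism, none passed, 3 were higher and 1 lower at the unadjusted level, and the smallest limma adjusted p was 0.61. For Cyp51 the averaged difference was 0.75 ± 0.22 on the log2 scale (SE, limma, adjusted p = 0.66), and it lay above both unexposed arrays on 3 of 3 exposed arrays. Other Cyp51 probe sets above the floor on all arrays gave 789, 1088 and 874, against 765 and 571, and 797, 919.6 and 753, against 577 and 417. A dimmer one read 318 on the early and 232 on the sham array and was under the floor on the others. There the later exposed arrays lay below sham. The last one was under the floor on all arrays.

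Among genes of sterol sensing and uptake, 5 of 15 were measured and none passed 2-fold by its main probe set. Insig1, which retains the SREBP escort in the endoplasmic reticulum and is itself raised by SREBP, read 3803, 3469.7 and 3349.6 in early, intermediate and late dust pools, against 2214 in the sham pool and 2749 in the untreated pool. The averaged difference was 0.52 ± 0.16 (log2, SE, limma, adjusted p = 0.69). Its second probe set read 3777, 2406 and 2670.2, against 1551 and 1660.3. It kept the groups apart, and its early value passed 2-fold, at 2.44-fold above sham and 2.27-fold above untreated. Scarb1, the receptor for high-density lipoprotein, read 1637, 1281 and 1598, against 1182 and 1393, and lysosomal acid lipase, Lipa, 5400.2, 5821 and 5519, against 6119 and 5736. The SREBP gene Srebf1 read 431, 398 and 469, against 234 in the sham pool and 512 in the untreated pool, so its exposed arrays lay between the unexposed ones.

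Of 13 genes of sterol storage, oxidation and efflux, 8 were measured. Soat1, which esterifies cholesterol for storage, was called higher on the early array, at 513 against 189 in the sham pool and 243 in the untreated pool, and read 210.2 and 279 on the later arrays. No other gene of this list was called. Cyp7b1, an oxysterol hydroxylase, read 559, 557 and 297, against 208 and 293. The apolipoprotein Apoe read 16300, 18828 and 22672, against 21603 and 19583, with no separation.

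Of 15 genes of fatty acid synthesis 7 were measured and none was called, and their median log2 differences were -0.23, 0.06 and -0.15 in early, intermediate and late dust pools. Whether they differ from the sterol enzymes was not tested. Acly, which supplies cytosolic acetyl coenzyme A to both pathways, read 6405, 8640 and 8411, against 7029 and 8023. Scd, the stearoyl desaturase, had every exposed array under both unexposed ones, at 5296, 3930 and 3784, against 7288 in the sham pool and 11588 in the untreated pool (averaged difference -1.10 ± 0.27, log2, SE, limma, adjusted p = 0.61). Of 8 adipocyte markers 6 were measured, and 3 of them, Cfd, Fabp4 and Ucp1, had every exposed array under both unexposed arrays, as 6.03% of all genes did. Cfd read 422, 605 and 381, against 943 and 1271. Lep, Lpl and Pparg did not separate, and Lpl, the brightest, read 4379, 4535 and 3738, against 4241 and 4041. The summed level of all 6 was 7115 to 8313 on the exposed arrays, against 9178 and 9833 on the sham and untreated arrays. Their part in the Scd values was not tested.

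The mitochondrial and peroxisomal counterparts of Acat2 held 4 measured genes of 7. Acat1, the mitochondrial thiolase, read 1935, 2666 and 2596 in early, intermediate and late dust pools, against 2271 and 3035, and Acaa2 3182, 4144 and 4386, against 3886 and 4153. Neither separated exposed from unexposed arrays, nor did the main Acat2 probe set. Hadhb read 3035, 2766 and 2922, against 2234 and 2206, and did. In the isoprenoid branch, the prenyltransferase subunits Fnta, Fntb and Pggt1b were the 3 measured of 8, and none was called.

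**Figure D3:**
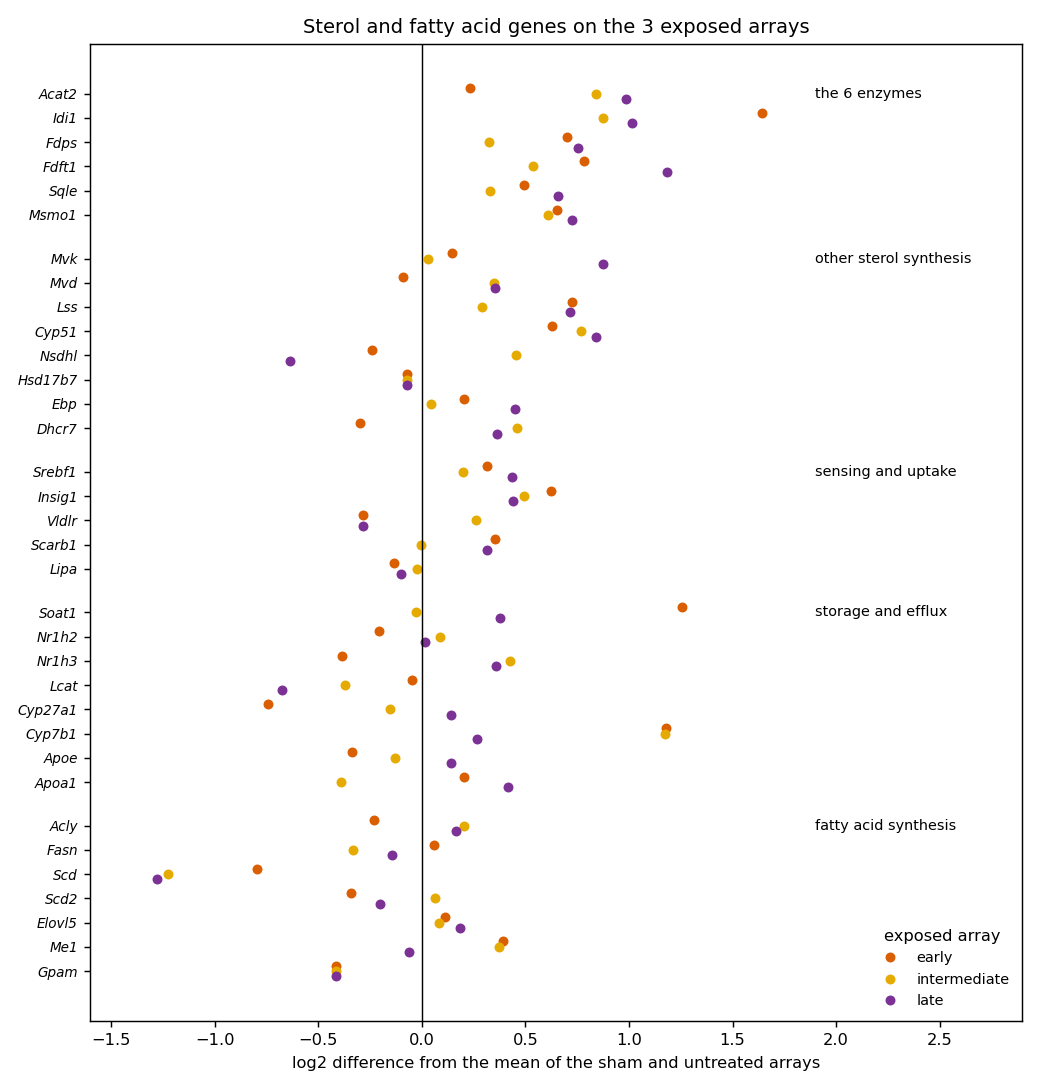
Log2 difference of each exposed array from the mean of the sham and untreated arrays for the main probe set of the 6 enzymes and of the measured genes of 4 other lists. The 6 enzymes lie between 0.23 and 1.64, the fatty acid genes between -1.28 and 0.39; values with an array at the floor only bound a difference.

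Markers of cells that enter or make up the lung were read beside the enzymes. Of 10 macrophage markers 3 were measured, with a summed level of 2154 to 3011 on the exposed arrays, against 1263 in the sham pool and 1497 in the untreated pool. Of 9 neutrophil markers 3 were measured, with 3617 to 5928, against 2567 and 1977. Alveolar type 2 markers, 4 of 9, summed to 135771 to 180083, against 148888 and 135666. Hepatocyte markers, 6 of 8, summed to 7458 to 8172, against 6693 and 6446, with albumin (Alb) under the floor on all arrays but early. Smooth muscle markers, 5 of 5, summed to 17449 to 22636, against 16347 and 18168, and endothelial markers, 4 of 6, to 2462 to 6000.0, against 3153 and 3827. Csf1r, Cxcr2 and Plin1, markers of macrophages, neutrophils and adipocytes, were under the floor on every array and so not counted as measured. Macrophage, neutrophil and hepatocyte sums were higher on every exposed array than on both unexposed arrays, as were 2 of the 3 macrophage, 2 of the 3 neutrophil and 1 of the 6 hepatocyte markers singly. That 1 was haptoglobin (Hp), and without it the hepatocyte sums were 3958, 4304 and 5297, against 4491 and 4432, with only the late array above both. Their part in the result was not tested.

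The profile of the enzymes was also compared with that of every gene outside the lists that was above the floor on all 5 arrays, 2713 genes. Each log2 profile was centred on its own mean, and likeness was the root mean square distance to the mean profile of the 6. The nearest were Pstpip1 (0.058 on the log2 scale), Ly6c (0.088), Arih2 (0.10), Psma4 (0.12) and Slit3 (0.12). Pstpip1 read 873, 813 and 958 in early, intermediate and late dust pools, against 477 in the sham pool and 591 in the untreated pool. Psma4, a proteasome subunit, read 2009, 1832 and 2138, against 1266 and 1527. How close other profiles have their nearest genes was not measured.

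**Figure D4:**
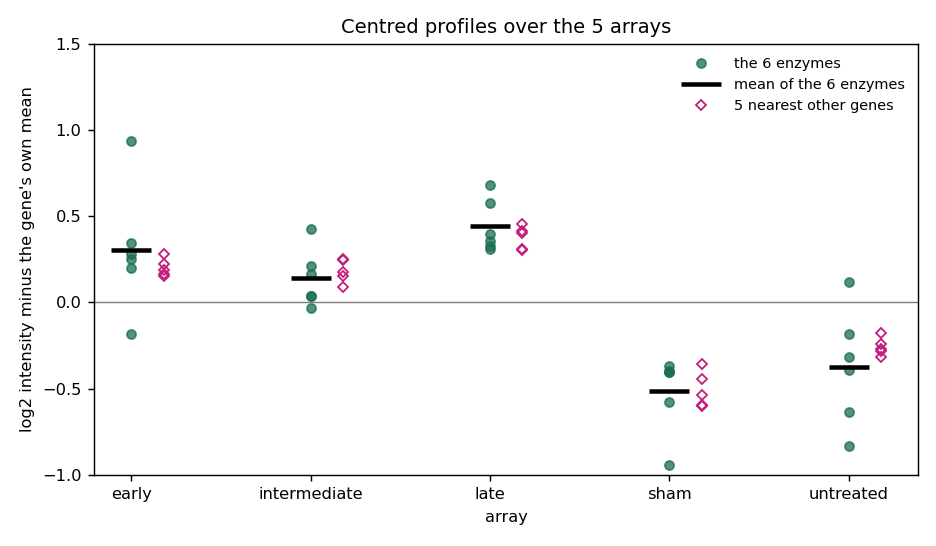
Log2 intensity minus the gene's own mean over the 5 arrays for the 6 enzymes (points), their mean (bar) and the 5 nearest other genes (diamonds, set to the right). The mean profile is 0.31, 0.14 and 0.44 in early, intermediate and late dust pools and -0.52 and -0.37 on the sham and untreated arrays.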

How the data were processed

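Lung RNA of 5 groups was measured on 1 one-colour array each. The authors deposited a table of linear intensity values for 8799 probe sets; no source used here gives the algorithm, software or scaling. Apart from the 5′ over 3′ ratios, the 59 control probe sets were not used. Of the other 8740, 7006 had 1 symbol in the platform annotation, 308 several and 1426 none, and the latter kinds stayed unnamed.

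From the deposited intensity, arrays were scaled to 1 median (factors 0.931 to 1.07), floored at the 40th percentile (172.5) and taken to log2; each array had 3167 to 3250 named genes over the floor. Folds against floored values are lower bounds. Fold calls and the limma fit (lmFit and eBayes, limma 3.58.1 in R 4.3.3, Benjamini-Hochberg adjustment) ran over 3667 genes and were tested on simulated data. Its p-values reflect the spread among these 5 arrays alone. The number of arrays limits the precision.

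The 7 enzymes and the 14 other lists were chosen with earlier results of these data known. Named genes were all probe sets of the enzymes; per other list up to 4 genes passing the fold rule on an exposed array or, where there were none, the 3 of highest mean; and the 5 nearest profiles. Lss, Mvk, Nsdhl, Ebp, Hsd17b7, Srebf1, Cyp7b1, Apoe, Scd and Alb were named after their values were seen. Fabp4, Lep, Lpl, Pparg, Hyou1, Ddit3, Csf1r, Cxcr2 and Plin1 were also named outside this rule. Several genes that the rule chose, most of them cell type markers, are not described singly. Alternatives were other scalings, floors, probe set choices, a 1.5-fold threshold, no filter and leaving out each array.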

Additional observations from a re-analysis of the deposited data

How the results depend on the processing

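Differences of the 6 enzymes from the mean of both unexposed arrays kept their sign in all 7 alternatives run on them. These changed the scaling, the floor or the probe set, with values from 0.11 (early Acat2) to 1.64 (early Idi1) on the log2 scale. The floors at the 20th and 60th percentile and the probe set chosen by the unexposed arrays left every difference unchanged. Those settings were therefore no check of the sign. The number of enzymes with all 3 exposed arrays above both unexposed ones was 5 in all 7 but the mean of all probe sets, which gave 6. The median shift of all genes on the intermediate array was 0.09 with median scaling and -0.04 with values as deposited. The median of the enzymes exceeded it by 0.48 and 0.45. At a 1.5-fold threshold 4, 2 and 4 of the 6 enzymes were higher in early, intermediate and late dust pools, as were 6.84%, 4.75% and 3.05% of all genes. The number higher on the late array was 0 in place of 1 with values as deposited, 75th percentile scaling, quantile normalization or the mean of all probe sets. With that mean the 1 enzyme called on the early array was Msmo1 (1.23 from the mean of both unexposed arrays) in place of Idi1.

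Counts over all genes moved more. With values as deposited, 18 genes were lower on the early array and 21 higher and 14 lower on the intermediate array, against 11, 32 and 8. With 75th percentile scaling 21 and 13 were lower on these arrays. With the mean of all probe sets 6 were lower on the early array, and 13 in place of 21 set the intermediate array apart from both other phases. A floor at the 20th percentile gave 146 higher and 66 lower genes in the early pool, 103 and 60 in the intermediate and 92 and 93 in the late pool. It gave 515 between sham and untreated and 197, 153 and 160 for each phase against the others. In the same order, the floor at the 60th percentile gave 53 and 3, 26 and 0, 12 and 21, then 26, and 50, 8 and 26. The 1.5-fold threshold gave 251 and 109, 174 and 58, 112 and 127, then 511, and 401, 187 and 177. Without the filter on dim genes limma called 1 gene, and with each array left out in turn it called 0. No paired analysis was possible because each group had 1 array. The cause of these shifts was not tested. Depth is not defined for these arrays, and signal near the floor limits the dim probe sets of Fdft1, Idi1 and Msmo1.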

Other observations

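Chaperones and folding enzymes of the endoplasmic reticulum, the membrane system that also holds the sterol sensor, were read beside the enzymes. Their list also held Ddit3, a transcription factor. All 10 measured of 12 listed were above both unexposed arrays on the intermediate array. Of these, 2 were past 2-fold there, as were 0.873% of all genes. The median log2 difference was 0.33, 0.82 and 0.36 in early, intermediate and late dust pools, against -0.01, 0.09 and 0.07 for all genes. Hspa5, the main chaperone of that compartment, read 6876, 9826 and 5239.7 in early, intermediate and late dust pools, against 4076 in the sham pool and 3594 in the untreated pool. Pdia6, a disulfide isomerase, read 3758, 8290.0 and 4746, against 3539 and 3970.0. Of the 10, 8 had their highest exposed value on the intermediate array, and Hyou1 and Ddit3 on the early array. The shares of all genes above both unexposed arrays by any amount on the intermediate array, or highest there, were not counted, so nothing is read from these counts. For the main probe sets of the sterol enzymes the intermediate array was the lowest exposed array in 5 of 6, and for their second probe sets in 3 of 7. The difference between the lists was not tested. Averaged over phases, the Hspa5 difference was 0.89 ± 0.29 on the log2 scale (SE, limma, adjusted p = 0.70), with 3 of 3 exposed arrays above both unexposed ones, and no gene of the list passed that test.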
